A study of Homo sapiens with 11 samples.

Results

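The response of MDA-MB-231 cells to E2-BSA was examined in 4 matched pairs of arrays, which used 8 of the 11 arrays of the series. This line, long established from a human breast carcinoma, is triple-negative, that is, without appreciable estrogen receptor alpha, progesterone receptor or HER2 amplification. E2-BSA is estradiol linked to the protein bovine serum albumin (BSA), and such conjugates are used to reach estrogen binding sites on the outer cell membrane. In each pair an array of cells given E2-BSA (1 µM) was set against an array of cells handled in the same way without it. The first pair was E2-BSA against the untreated control, and the second pair was the duplicate array of each. In the ICI pair both arrays carried ICI (10 µM), an antagonist that the labels name by this abbreviation alone, and E2-BSA with ICI was set against ICI alone. In the G15 pair both arrays carried G15 (10 µM), which blocks the membrane estrogen receptor GPER, and E2-BSA with G15 was set against G15 alone. Treatment lasted 3 h and followed 4 h of preincubation, both with 10% serum stripped by charcoal. The other 3 arrays were of cells given the vehicle ethanol (0.1%), free estradiol (1 µM) or the carrier BSA (1 µM), and they are cited only where they stand beside a result. No array of the 4 pairs was used more than once. The matched array of each pair lacked BSA as well as estradiol, so the hormone and its carrier cannot be told apart within a pair.

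The platform was the Affymetrix HG-U133 Plus 2.0 array, on which many genes have several probe sets. The deposited values were log2 values centred for each probe set, so they give differences between arrays and no level of a gene, and the identity of the cells could not be checked by marker levels. Averaging the probe sets of each gene gave 19775 genes. Every difference below is log2 of the E2-BSA array minus its matched array, relative to the median gene of that pair, and is given in the order first, second, ICI and G15 pair. The labels did not say whether the arrays came from separate cultures, so all p-values measure only the spread between these arrays.

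As background, receptors at the cell surface can pass a signal on through kinases without a nuclear estrogen receptor. GPER, which binds estradiol, is known to act through release of ligands of the epidermal growth factor receptor and through ERK. NF-κB is a family of transcription factors held in the cytoplasm by inhibitors such as IκBα. Once released they induce chemokines and cytokines and also their own inhibitors, among them IκBα (gene NFKBIA) and A20 (gene TNFAIP3), which end the signal. Chemokines of the CXCL1 to CXCL8 group attract neutrophils, and MDA-MB-231 cells are known for high NF-κB activity and for secretion of IL-6 and IL-8.

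The promoters of 6 NF-κB target genes that were higher with E2-BSA in all 4 pairs are shown because the proximal NF-κB-type element is what they share in sequence. They come from RefSeq on GRCh38.p14 and run 5′ to 3′ on the strand of the gene. Capitals mark matches to GGNNTTTCC on either strand, with 30 bases on each side. CXCL1 lies on the plus strand at chr4:73869285-73869378, CXCL2 on the minus strand at chr4:74099210-74099302, CXCL3 on the minus strand at chr4:74038704-74038797, CXCL8 on the plus strand at chr4:73740448-73740516, IL6 on the plus strand at chr7:22727098-22727166 and TNFAIP3 on the plus strand at chr6:137867162-137867242.
CXCL1: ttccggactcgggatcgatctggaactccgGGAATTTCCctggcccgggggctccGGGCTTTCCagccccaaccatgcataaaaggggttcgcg
CXCL2: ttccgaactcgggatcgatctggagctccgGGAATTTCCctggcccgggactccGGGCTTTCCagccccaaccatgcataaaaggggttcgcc
CXCL3: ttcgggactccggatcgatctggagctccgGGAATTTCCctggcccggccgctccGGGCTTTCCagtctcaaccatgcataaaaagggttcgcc
CXCL8: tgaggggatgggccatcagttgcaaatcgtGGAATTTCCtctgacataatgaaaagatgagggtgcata
IL6: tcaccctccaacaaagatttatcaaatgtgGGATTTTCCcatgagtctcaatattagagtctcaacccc
TNFAIP3: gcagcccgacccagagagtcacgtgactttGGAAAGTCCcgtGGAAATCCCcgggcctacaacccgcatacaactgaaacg

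The stretches of CXCL1, CXCL2 and CXCL3 are near-copies of each other, each with 2 matches, and these 3 genes are therefore not independent in sequence. CXCL8 and IL6 hold 1 match each and TNFAIP3 holds 2, both on the opposite strand. The matches start 78 and 53 bases before the start site in CXCL1, 91 bases before it in CXCL8 and 72 bases before it in IL6. Over all 35116 promoters of the table, 300 bases each, 2198 (6.26%) hold the motif. A match is a description of the letters and does not show that a factor was bound.

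Before the genes are described, the arrays of 2 pairs stood apart. The spiked-in poly-A transcripts of bacterial genes, which monitor the labelling, averaged 1.62 and 1.4 in the control and E2-BSA arrays of the first pair, and between -0.56 and 0.10 in the 6 arrays of the other pairs. Only the first pair lies in that set, but both of its arrays do, so a shift of the whole set drops out of its difference. In the G15 pair 640 probe sets were lower by more than 1.5 and 106 were higher by as much. Of the 640 lower probe sets, 628 belong to genes that have other probe sets, and the median of those 1616 other probe sets was -0.04. The topoisomerase gene TOP1 had such a split, with 1 probe set at -3.68 and the other at -0.26. The cell cycle gene FAM111B stood at -2.43 in the E2-BSA with G15 array and at 0.77 in the G15 array, while the other arrays of the larger set lay between 0.60 and 0.96. That gene's value in the G15 pair therefore rests on the E2-BSA with G15 array. For other genes the array with G15 alone was also away from the control: RELA read -0.74 with G15 alone, 0.06 with E2-BSA and G15 and -0.04 in the second control, and SAMD9 read -1.0, -0.07 and 0.05. The cause was not tested, so values of the G15 pair are given with and without it where it carries a mean.

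The spread over genes followed this. The SD of the differences over the 19775 genes was 0.275 in the first, 0.153 in the second, 0.174 in the ICI and 0.289 in the G15 pair. Past a difference of 1, which is a factor of 2, lay 26 genes higher and 73 lower in the first pair and 69 higher and 160 lower in the G15 pair. The second pair had no gene past 1 and the ICI pair had 1. Across genes, which are not independent replicates, the differences of any 2 pairs correlated with Pearson's r between -0.02 and 0.10.

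**Figure D1:**
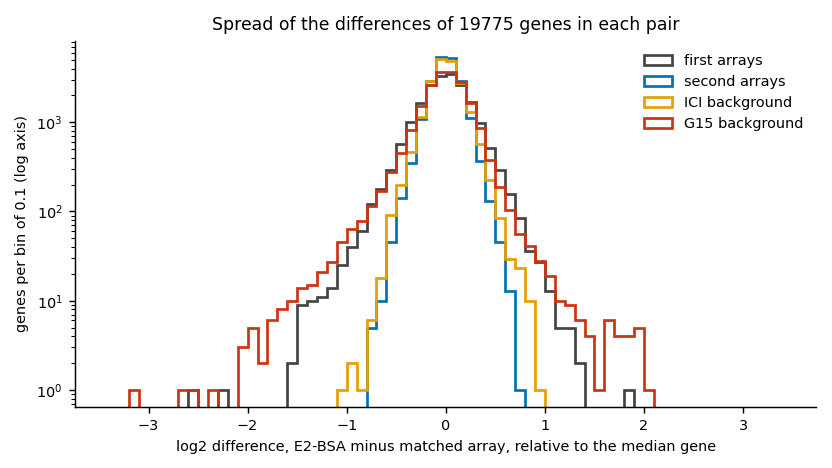
Histogram of the log2 difference, E2-BSA minus its matched array and relative to the median gene (x axis), for 19775 genes in each of the 4 pairs, with genes per bin of 0.1 on a log axis. The second and ICI pairs are narrow, with SDs of 0.153 and 0.174, and the G15 pair has the longest lower tail.

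The first question was which genes differed with E2-BSA over all 4 pairs. Ranked by the smallest of a gene's 4 differences, the neutrophil chemokine CXCL1 and the NF-κB inhibitor TNFAIP3 came first on the higher side, and the non-coding transcript FRMD6-AS1 on the lower side. None of the 19775 genes passed limma's test at an adjusted p of 0.05 (0% called), with 3 residual degrees of freedom. At an unadjusted p under 0.05 there were 1007 genes, and the smallest adjusted p was 0.861. Without a trend in limma's prior variance 0 genes were called as well, with 995 at an unadjusted p under 0.05. What follows is therefore a description of size and agreement, with no gene called.

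The differences had the same sign in all 4 pairs for 2778 genes, 1401 higher (7.08%) and 1377 lower (6.96%). Without the centring on the median gene the split was 1016 higher and 1633 lower. Higher by more than 0.2 in all 4 pairs were 24 genes (0.121%), and lower by more than 0.2 in all 4 were also 24 (0.121%). The value 0.2 was chosen after the differences were seen. The size of the mean difference had a median of 0.07 over all genes and a 99th percentile of 0.37, and 17 genes had a mean above 0.5 and 24 a mean below -0.5.

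CXCL1, a chemokine that draws neutrophils through the receptor CXCR2, had the largest mean difference of all genes higher in the 4 pairs. Without E2-BSA it stood at 0.82 in the first control, -2.08 in the second control, -2.03 with ICI and -2.58 with G15. With E2-BSA the same 4 backgrounds read 2.71, -1.30, -1.19 and -0.74. The arrays with E2-BSA were higher than their partners in every pair, and in the 6 arrays of the larger set the 3 with E2-BSA all lay above the 3 without. The differences were 1.89, 0.75, 0.85 and 1.93, with a mean of 1.36 ± 0.65 (SE from limma, n = 4 pairs), a 2.56-fold difference, and an adjusted p of 0.861 (limma with Benjamini-Hochberg adjustment). limma's prior variance followed a gene's mean centred value, and without that trend the SE was 0.21. Leaving out the first pair gave a mean of 1.18, and quantile normalization of the arrays gave 0.85.

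TNFAIP3 encodes A20, a ubiquitin-editing enzyme that shuts off NF-κB signalling. It read 0.33, -0.90, -1.14 and -1.83 without E2-BSA and 1.11, -0.38, -0.45 and -0.65 with it. Again each E2-BSA array lay above its partner, and the sets of 3 did not overlap. The differences of 0.78, 0.50, 0.70 and 1.26 averaged 0.81 ± 0.20 (SE from limma, n = 4 pairs), a 1.75-fold difference. Both of its probe sets were higher in all 4 pairs.

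CXCL8, which encodes interleukin-8, read 2.10, -2.67, -2.95 and -2.90 without E2-BSA and 2.79, -2.38, -2.46 and -2.02 with it. The gap between the first pair and the others exceeded 4, far more than the effect within any pair. The differences were 0.70, 0.27, 0.51 and 0.97, with a mean of 0.61. Its SE was 8.83 with the trend in limma's prior variance and 0.12 without it. Of its 2 probe sets 1 was higher in all 4 pairs, and the other read -0.13 in the second pair.

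IL6 encodes the cytokine interleukin-6. It read 2.49, -1.75, -1.56 and -1.20 without E2-BSA and 3.00, -1.44, -1.21 and -0.94 with it. Its differences were even, at 0.51, 0.28, 0.36 and 0.34, with a mean of 0.37 ± 0.11 (SE from limma, n = 4 pairs). The sets of 3 arrays overlapped for IL6, because G15 alone already stood above E2-BSA with ICI.

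CXCL3 and CXCL2, chemokines of the same cluster as CXCL1, were higher in all 4 pairs as well. CXCL3 differed by 1.25, 0.12, 0.39 and 0.81, with a mean of 0.64. CXCL2 differed by 0.44, 0.26, 0.43 and 0.53, but only 1 of its 3 probe sets carried this, at 1.19, 0.60, 0.80 and 1.83. The other 2 CXCL2 probe sets lay between -0.26 and 0.30. CXCL1, CXCL2 and CXCL3 transcripts are close in sequence, so their probe sets may share signal.

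**Figure D2:**
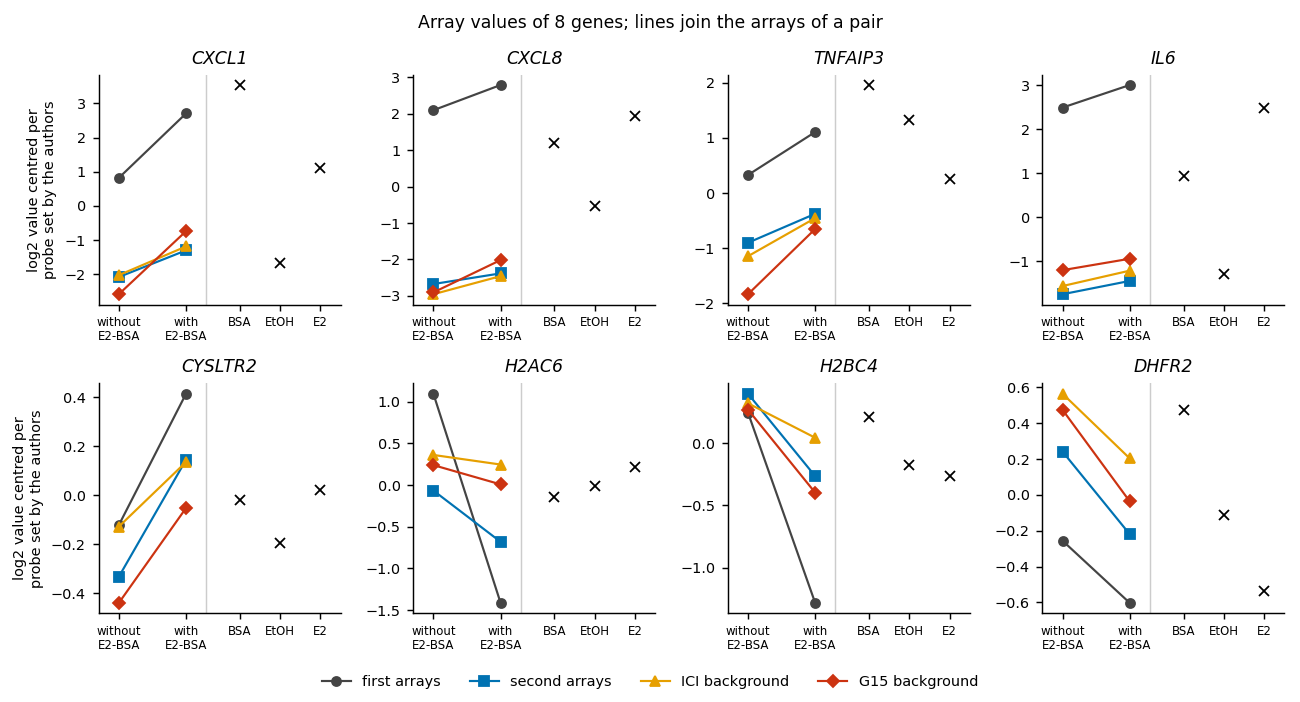
Array values of 8 genes (y axis, log2 values centred per probe set by the authors). Lines join the array without E2-BSA to the array with it in each of the 4 pairs, and crosses show the BSA, ethanol (EtOH) and estradiol (E2) arrays. CXCL1, CXCL8, TNFAIP3, IL6 and CYSLTR2 go up in all 4 pairs and H2AC6, H2BC4 and DHFR2 go down, while the first pair starts at another value for several genes, such as 2.49 against -1.75 for IL6.

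The carrier array stood above the same control for these genes. BSA minus the second control, a comparison that shares the second control with the second pair, read 5.43 for CXCL1, 3.68 for CXCL8, 3.59 for CXCL3, 2.67 for TNFAIP3, 2.49 for IL6 and 1.59 for CXCL2. Each of these exceeded the difference of every E2-BSA pair. Free estradiol minus the first control, which shares that control with the first pair, read 0.29 for CXCL1, -0.06 for TNFAIP3, 0.01 for IL6 and -0.14 for CXCL8. Ethanol minus the second control read 0.38 for CXCL1 but 2.18 for TNFAIP3 and 2.10 for CXCL8. Each of these is a difference of 2 single arrays with no replicate, and the part of the carrier in the E2-BSA differences was not tested.

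The chemokine and cytokine targets of NF-κB were then taken as a list, 21 of which were measured. Higher in all 4 pairs were 8 of the 21, namely CXCL1, CXCL2, CXCL3, CXCL5, CXCL8, IL6, IL11 and LIF. Lower in all 4 were 2, the T cell chemokine CCL20 with a mean of -0.25 and IL32 with a mean of -0.33. IL11, a cytokine of the IL-6 family, differed by 1.07, 0.38, 0.16 and 0.06, with a mean of 0.42 that was 0.20 without the first pair. The interferon-induced chemokine CXCL10 had a mean of -0.32 but was higher in the ICI pair, at 0.40, and its mean was -0.14 without the first pair and -0.55 without the ICI pair. The list's median difference was 0.35 in the first pair, 0.03 in the second, 0.11 in the ICI and 0.09 in the G15 pair, so the larger differences belonged to some of its members and not to the list as a whole. In the BSA array 19 of the 21 were higher than in the second control, and in the estradiol array 10 of 21 were higher than in the first control.

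Of 18 NF-κB subunits and feedback inhibitors, 5 were higher in all 4 pairs and 0 lower. Besides TNFAIP3 these were NFKBIA (0.47, 0.23, 0.34 and 0.01), the subunit REL (0.44, 0.20, 0.12 and 0.28), the subunit NFKB1 with a mean of 0.16 (0.10 without the ICI pair), and the survival gene IER3 with a mean of 0.20. The mitochondrial superoxide dismutase SOD2, another NF-κB target, went the other way in 3 pairs (-0.82, -0.44, 0.29 and -0.06). Together the NF-κB lists held 39 measured genes, of which 13 (33.3%) were higher in all 4 pairs beside 7.08% of all genes, and 5 (12.8%) were higher by more than 0.2 in all 4 beside 0.121% of all genes. Within the larger set of arrays, the 3 E2-BSA arrays all lay above the 3 without for 8 of the 39 and all below for 1, beside 3.65% and 4.47% of all genes. Some of these signs depend on the centring on the median gene. Before it, IL11 read 0.402 with G15 alone and 0.382 with E2-BSA and G15. LIF read -0.148 with ICI alone and -0.157 with E2-BSA and ICI. The 0.01 of NFKBIA in the G15 pair is smaller than that pair's median shift of -0.08, so its sign there rests on the centring too. The counts of these lists were not repeated without the centring. The lists were drawn up with earlier results of these data known, so these counts carry no test.

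The motif shown above was present in the promoters of most list members, whether or not they agreed between pairs. A promoter was in the RefSeq table for 30 of the 39 members, and 22 of the 30 held the motif. It was present in 10 of the 11 members that were higher in all 4 pairs, the exception being IL11, and in 12 of the 19 others. SOD2 and TNF were without a match, and CCL20, IL32 and CXCL10 had one.

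Immediate early transcription factors, which answer kinase signals within minutes, gave 2 of 27 members (7.4%) higher in all 4 pairs and 1 (3.7%) lower, near the 7.08% and 6.96% of all genes. The nuclear receptor NR4A2 read 0.11, -1.03, -0.45 and -0.98 without E2-BSA and 1.25, -0.49, -0.28 and -0.36 with it. Its differences of 1.14, 0.51, 0.18 and 0.70 averaged 0.64 ± 0.16 (SE from limma, n = 4 pairs), and its E2-BSA arrays lay above the others in the larger set. In the ethanol array NR4A2 was 1.72 above the second control. In the BSA array it was 0.57 above that control, which exceeded its difference in the second and ICI pairs. The AP-1 subunit FOSL2 had a mean of 0.24 (0.14 without the first pair), and KLF10, a target of TGF-β signalling, had a mean of -0.20. FOS differed by 0.57, -0.26, -0.18 and 0.00 and EGR1 had a mean of 0.02, so the best known members of the list had no shared direction.

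Feedback genes of the ERK pathway, which encode phosphatases and inhibitors induced by ERK, had 5 of 18 members (27.8%) higher in all 4 pairs, beside 7.08% of all genes, and 0 lower, beside 6.96%. SPRY2, an inhibitor of receptor tyrosine kinase signalling, differed by 0.50, 0.22, 0.27 and 0.26. The phosphatase genes DUSP10, DUSP5 and DUSP1 had means of 0.28, 0.20 and 0.16 (DUSP1 0.09 without the ICI pair), and IER3 is shared with the NF-κB list. The mean of DUSP1 was -0.001 when its most variable probe set stood for the gene. Ethanol minus the second control was 1.13 for DUSP10, 0.75 for DUSP1 and 0.60 for SPRY2, each above every E2-BSA pair of that gene. BSA minus the second control was 0.57 for DUSP10, 0.27 for SPRY2 and -0.01 for DUSP1. The median of the list was 0.24 for ethanol and -0.03 for BSA, each minus the second control. The ERK-specific phosphatase DUSP6 and the ERK target ETV5 had means of -0.17 and -0.22, both through the G15 pair (-0.67 and -0.71). Of 14 prostaglandin genes 3 (21.4%) were higher in all 4 pairs and 0 lower, beside 7.08% and 6.96% of all genes. PTGS2, which encodes the inducible cyclooxygenase, and PTGER4, a prostaglandin E2 receptor, had means of 0.21 each, with PTGER3 at 0.06. The largest mean in size was that of PLA2G4A, at -0.24 (-0.14, -0.59, -0.36 and 0.10), and PTGES had a mean of -0.15. Of the 2 PTGS2 probe sets 1 read -0.23 in the second pair. BSA minus the second control was 0.62 for PTGS2 and 0.34 for PTGER4. Without the first pair PTGS2 was at 0.13.

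Other genes of the higher group had no list in common. CYSLTR2, a receptor for cysteinyl leukotrienes, read -0.12, -0.33, -0.13 and -0.44 without E2-BSA and 0.42, 0.15, 0.14 and -0.05 with it, a mean difference of 0.43 ± 0.08 (SE from limma, n = 4 pairs). All 4 of its E2-BSA arrays lay above all 4 without. The transglutaminase TGM6 differed by 0.64, 0.44, 0.34 and 0.29, and the growth regulator CGREF1 by 0.85, 0.33, 0.41 and 0.44. PAIP2B, an inhibitor of translation that binds the poly(A)-binding protein, differed by 1.07, 0.33, 0.43 and 0.28, and its mean of 0.53 was 0.35 without the first pair. The small GTPase gene RAB26 (0.36), the neuronal adhesion gene AMIGO1 (0.35) and the pseudogene DNM1P35 (0.28) had differences of at least 0.23 in each pair. The helix-loop-helix gene ID3 had a mean of 0.56 that was largest in the first pair, at 1.39, and was 0.29 without it. SP7, a bone transcription factor, and NMUR1, a neuropeptide receptor, had means of 0.44 and 0.42. BSA minus the second control was 0.12 for CYSLTR2, 0.12 for TGM6, 0.04 for CGREF1, 0.11 for RAB26, 0.12 for DNM1P35, 0.08 for SP7 and -0.13 for NMUR1, but 0.69 for AMIGO1, 0.39 for PAIP2B and 0.23 for ID3, which for these 3 exceeded the difference of the second pair. Ethanol minus the second control was 0.61 for CGREF1, 0.48 for ID3, 0.31 for PAIP2B, 0.29 for RAB26 and 0.26 for TGM6. It was 0.10 for NMUR1, 0.09 for CYSLTR2, 0.05 for DNM1P35, 0.03 for AMIGO1 and -0.04 for SP7.

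**Figure D3:**
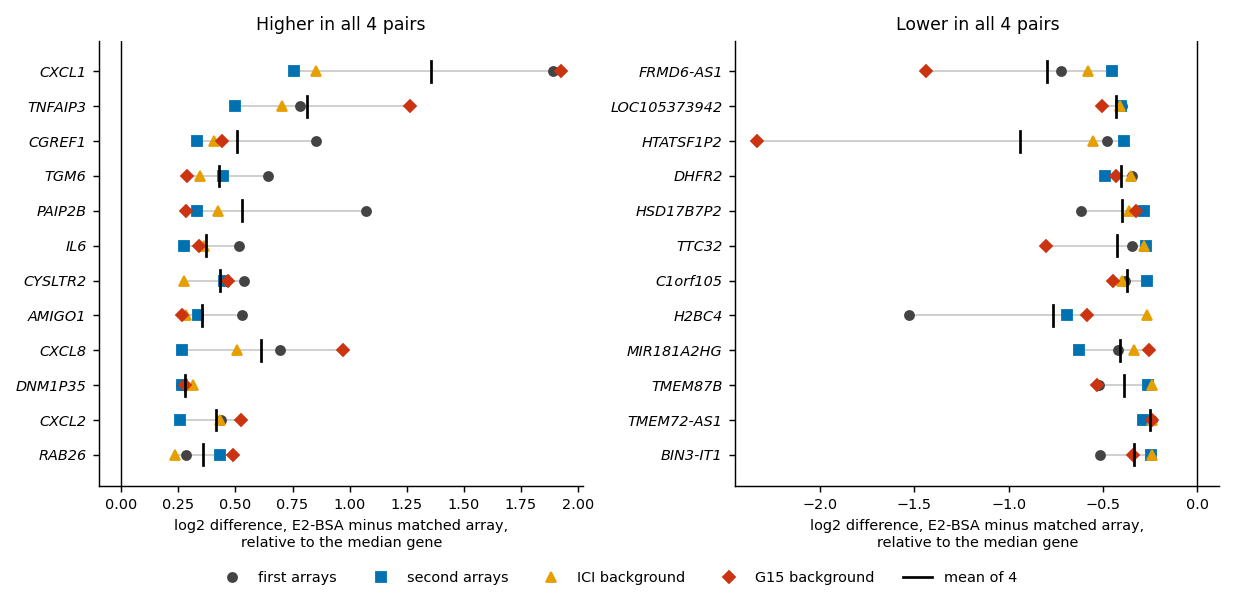
The 12 genes in each direction whose smallest difference over the 4 pairs was largest in size. The x axis is the log2 difference, E2-BSA minus its matched array and relative to the median gene, symbols are the 4 pairs and vertical bars are their means. CXCL1 and TNFAIP3 lead the higher genes with means of 1.36 and 0.81, and HTATSF1P2 has a mean of -0.94 that rests on the G15 pair.

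On the lower side FRMD6-AS1, a transcript antisense to FRMD6, had the largest smallest difference. It read -0.24, 0.77, 1.23 and 0.95 without E2-BSA and -0.97, 0.34, 0.64 and -0.57 with it. The differences were -0.72, -0.45, -0.58 and -1.44, a mean of -0.80 ± 0.16 (SE from limma, n = 4 pairs). BSA minus the second control was -0.63 for this gene.

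DHFR2, a dihydrofolate reductase gene, read -0.26, 0.24, 0.56 and 0.47 without E2-BSA and -0.60, -0.22, 0.20 and -0.04 with it. Its mean difference was -0.40 ± 0.07 (SE from limma, n = 4 pairs), and BSA minus the second control was 0.04. Ethanol minus the second control was -0.40 for DHFR2, as large as that mean, and estradiol minus the first control was -0.27. HSD17B7P2, a pseudogene of a sterol enzyme, differed by -0.62, -0.28, -0.36 and -0.32. LOC105373942 differed by -0.40, -0.40, -0.41 and -0.50. C1orf105 (-0.38), SMIM30 (-0.40), TTC32 (-0.43), TMEM87B (-0.39), MIR181A2HG (-0.41), BIN3-IT1 (-0.34) and TMEM72-AS1 (-0.25), given here with their means, also had a single sign. HTATSF1P2 had a mean of -0.94, with -2.33 in the G15 pair and between -0.39 and -0.55 in the other 3, whose mean was -0.47. Ethanol minus the second control was -0.78 for LOC105373942, -0.70 for TMEM87B, -0.54 for SMIM30, -0.37 for C1orf105, -0.26 for HTATSF1P2, -0.25 for HSD17B7P2 and -0.21 for MIR181A2HG. It was above 0 for TTC32 (0.13), TMEM72-AS1 (0.14) and BIN3-IT1 (0.21). BSA minus the second control was -0.69 for MIR181A2HG, -0.36 for LOC105373942, -0.30 for TMEM87B, -0.23 for C1orf105, -0.22 for HSD17B7P2 and -0.15 for SMIM30. It was -0.05 for HTATSF1P2 and -0.03 for BIN3-IT1, but 0.26 for TTC32 and 0.43 for TMEM72-AS1.

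The kinds of transcript differed between the sides as a count. Of the 24 genes lower by more than 0.2 in all 4 pairs, 12 are protein-coding in RefSeq, 10 are long non-coding RNAs and 2 are pseudogenes. Of the 24 higher genes, 19 (79.2%) are protein-coding, 4 are long non-coding RNAs and 1 is a pseudogene. Of all 19738 genes with an entry, 83.7% are protein-coding, 2658 are long non-coding RNAs and 498 are pseudogenes.

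Among all genes of a single sign, several large negative means came from the G15 pair alone. ZFR, RAB6A, TOP1 and POM121C had means between -0.56 and -0.58, but differences between -1.60 and -1.98 in the G15 pair and none beyond -0.43 elsewhere. Without the G15 pair these means lay between -0.09 and -0.24. The 6 genes with the largest SD over the pairs included 4 with such a value in the G15 pair, namely FAM111B (-3.11), SRGAP2C (-2.65), ANKRD36B (-2.56) and MATR3 (-2.04). The cyclin gene CCND1 read -1.56 in the G15 pair and between -0.03 and 0.04 in the other 3, and of its 2 probe sets only 1 was low. The other members of the 6, the phosphatase gene ALPP and the histone gene H2AC6, had their extreme value in the first pair, at -2.23 and -2.51.

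Canonical and linker histone genes, many but not all of which are read mainly in S phase, were lower with E2-BSA mostly in the first pair. The list's median difference was -1.03, -0.32, -0.01 and -0.10 over 12 measured members, and 11 of the 12 had a mean below 0. Only H2AC6, H2BC4 and H1-2 were lower in all 4 pairs (25.0% of the list beside 6.96% of all genes). H2AC6 read 1.10, -0.07, 0.36 and 0.24 without E2-BSA and -1.41, -0.68, 0.25 and 0.01 with it. Its mean of -0.85 became -0.30 without the first pair, and that of H1-2 went from -0.47 to -0.15. H2BC4 read 0.25, 0.40, 0.32 and 0.27 without E2-BSA and -1.29, -0.27, 0.04 and -0.40 with it. For H2BC4 the arrays with E2-BSA lay below those without in every pair and the groups did not overlap, with a mean of -0.77 ± 0.18 (SE from limma, n = 4 pairs). The median of the list was -0.46 for estradiol minus the first control, which shares that control with the first pair. H2BC4 stood at -0.50 in that comparison, at -0.62 for ethanol minus the second control and at -0.38 for BSA minus the second control.

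H2AC6 and H2BC4 are neighbours read in opposite directions, and their start sites lie 246 bases apart. The stretch between them is shown because both genes were lower in all 4 pairs. It comes from RefSeq on GRCh38.p14 at chr6:26123927-26124171 and is written on the plus strand, which is that of H2AC6. Capitals mark the octamer, ATTTGCAT on either strand, an element of histone H2B promoters that 623 of the 35116 promoters hold (1.77%).
H2AC6 and H2BC4: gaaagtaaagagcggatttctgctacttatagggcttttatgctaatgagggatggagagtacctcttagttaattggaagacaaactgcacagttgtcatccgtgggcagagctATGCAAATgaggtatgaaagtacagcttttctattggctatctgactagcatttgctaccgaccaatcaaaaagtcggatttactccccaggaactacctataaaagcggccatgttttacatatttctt

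Both genes share this stretch, so their agreement is not that of independent promoters. The cell cycle lists did not follow the histones: genes of G1/S and DNA replication had medians of 0.17, -0.05, 0.01 and 0.00, and genes of G2/M and mitosis 0.01, -0.03, 0.03 and -0.10.

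Interferon-stimulated genes, which encode antiviral proteins, were also lower in the first pair. Their medians were -0.37, -0.02, 0.01 and 0.05 over 33 measured members, and 2 of the 33 were higher in the first pair against 15, 17 and 22 in the others. Lower in all 4 pairs were 5 of 33 (15.2%), beside 6.96% of all genes, among them XAF1, an apoptosis regulator, at -0.43, -0.12, -0.29 and -0.19. SAMD9L had a mean of -0.36 that rested on -1.21 in the first pair (-0.08 without it), and IFI16 a mean of -0.42 that rested on -1.25 in the G15 pair (-0.15 without it). Markers of luminal epithelium and of blood cells moved in the same pair, with medians of -0.14 and -0.29 in the first pair and between -0.05 and 0.02 in the others. Only differences can be given for these markers, and their part in the result was not tested.

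Genes of sterol synthesis and uptake, most of which are controlled by the sterol sensor SREBP2, had small differences in a shared direction. The mean was below 0 for 19 of 21 members, beside 9813 of the 19775 genes with a mean above 0. The list's medians were -0.14, -0.10, -0.03 and -0.03. Lower in all 4 pairs were 5 of 21 (23.8%), beside 6.96% of all genes, with HSD17B7 at a mean of -0.19, INSIG1 at -0.18, STARD4 at -0.15 and HMGCS1, an early enzyme of the pathway, at -0.14. Without the G15 pair HSD17B7 was at -0.11 and INSIG1 at -0.10, and without the second pair HMGCS1 was at -0.09. The median of the list was -0.10 for BSA minus the second control and -0.07 for estradiol minus the first control.

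The receptors that estradiol could use had differences near 0. ESR1, estrogen receptor alpha, had a mean of 0.07 ± 0.07, ESR2, estrogen receptor beta, 0.03 ± 0.07, and GPER1, which encodes GPER, -0.05 ± 0.08 (SE from limma, n = 4 pairs), and leaving out a pair turned the sign of ESR2 and GPER1. PGRMC2, a membrane-associated heme-binding protein, was lower in all 4 pairs with a mean of -0.13. Of 26 classical targets of estrogen receptor alpha, 5 (19.2%) were higher and 4 (15.4%) lower in all 4 pairs, beside 7.08% and 6.96% of all genes. BCL2, an inhibitor of apoptosis, had a mean of 0.23 (0.15 without the first pair) and the ubiquitin ligase gene SIAH2 of 0.15 (0.19, 0.17, 0.15 and 0.11). XBP1, a factor of the unfolded protein response, had a mean of -0.30 and the chemokine CXCL12 of -0.24. TFF1, GREB1 and PGR, the most used readouts of this receptor, had means of -0.11, 0.05 and -0.07 and mixed signs. Of 15 genes known from GPER and YAP signalling, NOTCH1, HES1 and KLF10 were lower in all 4 pairs and CYP1B1 was higher. CCN1, CCN2 and ANKRD1 were lower in 3 of 4. HES1 differed by -0.004, -0.013, -0.006 and -0.299, and CYP1B1 by 0.25, 0.32, 0.04 and 0.02. Before the centring on the median gene, HES1 read -0.548 in the second control and -0.535 in the second E2-BSA array. CYP1B1 read -0.513 with G15 alone and -0.572 with E2-BSA and G15. The signs of HES1 in the second pair and of CYP1B1 in the G15 pair therefore rest on the centring. Of EGFR and its ligands, 11 genes, BTC alone (9.1%) was lower in all 4 pairs and 0 were higher, beside 6.96% and 7.08% of all genes. BTC differed by -0.73, -0.18, -0.15 and -0.18 (a mean of -0.31, or -0.17 without the first pair).

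Over the 28 lists, 500 different genes were measured and 0 were called. Ribosomal protein genes had medians between -0.03 and 0.07, and the lists of glycolysis, oxidative stress and respiration had medians within 0.06 of 0 in every pair.

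**Figure D4:**
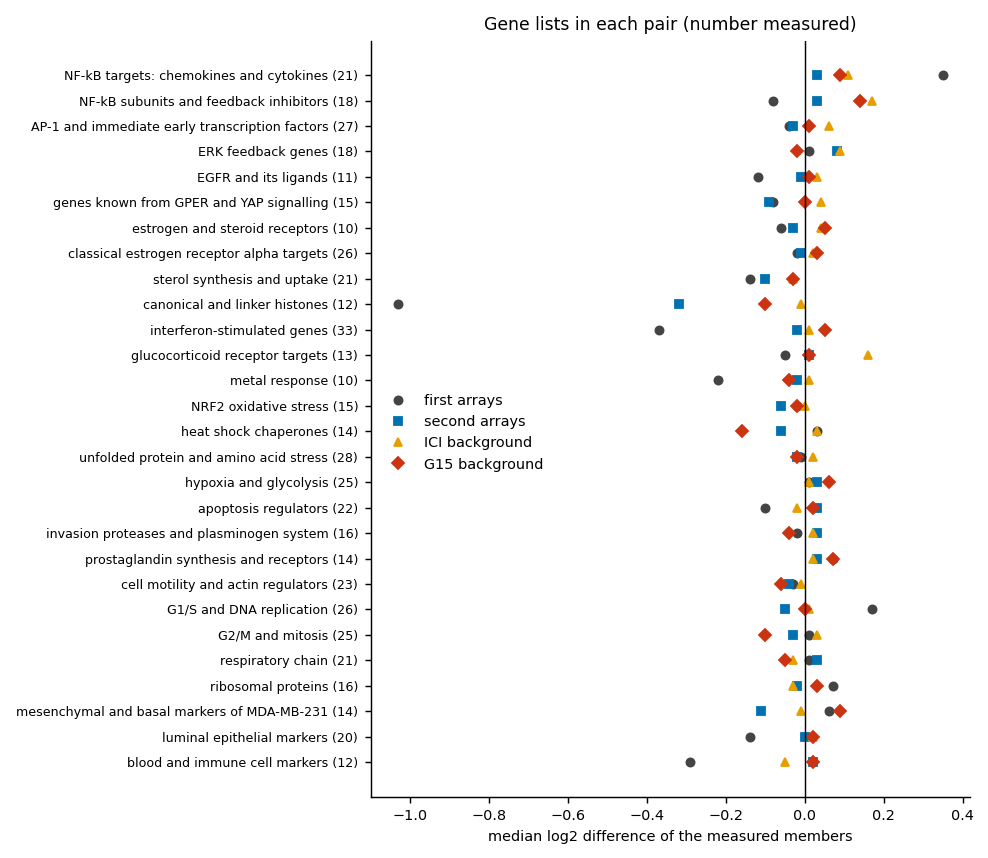
Median log2 difference (x axis, E2-BSA minus its matched array, relative to the median gene) of the measured members of 28 gene lists in each of the 4 pairs, with the number measured in parentheses. Histones (-1.03) and interferon-stimulated genes (-0.37) have their lowest medians in the first pair, and most other medians lie close to 0.

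The second question was whether the antagonists changed the response. The difference of interest was the mean of the ICI and G15 pairs minus the mean of the first and second pairs, with 2 residual degrees of freedom. No gene was called in it by limma at an adjusted p of 0.05 (0% of 19775), with 733 at an unadjusted p under 0.05 and a smallest adjusted p of 0.973. For CXCL1 the difference of differences was 0.07 ± 1.59 and for TNFAIP3 0.34 ± 0.45 (SE from limma, 4 pairs). These errors are as large as the differences or larger, so neither a loss nor a gain of the E2-BSA difference under the antagonists can be read from them. Side by side, CXCL1, TNFAIP3, CXCL8, CXCL2 and IL6 were higher with E2-BSA in the presence of ICI and in the presence of G15, as given above. These genes were named for being higher in all 4 pairs, so that sign was fixed by the choice. It does not show whether the antagonists blocked the response.

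The genes with the smallest p in this comparison had opposite signs without and with an antagonist. S100A4, a calcium-binding protein tied to cell motility, differed by -0.57, -0.14, 0.95 and 1.78. It read -1.33 with ICI alone and -1.68 with G15 alone, below the 2 E2-BSA arrays of those pairs (-0.39 and 0.03) and below the control of the same set (-0.18). The antagonist difference was 1.72 ± 0.31 (SE from limma, 4 pairs). COX17, a copper chaperone of cytochrome oxidase, read 0.22, 0.36, -0.31 and -0.13 without E2-BSA and -0.10, -0.19, 0.29 and 0.29 with it. Its differences were thus -0.31, -0.58, 0.61 and 0.49, an antagonist difference of 1.0 ± 0.17 (SE from limma, 4 pairs). The histone gene H2BC21 differed by -1.47, -0.71, 0.29 and 0.22 and the protease inhibitor TIMP4 by -1.54, -0.54, 0.38 and 0.46. In the other direction RFPL3 differed by 1.11, 0.49, -0.49 and -0.22, with an antagonist difference of -1.15, RSPO4, a Wnt pathway agonist, by 0.85, 0.28, -0.52 and -0.33, SLC13A5, a citrate transporter, by 0.72, 0.61, -0.01 and -0.29, and LOC102724250 by 0.37, 0.33, -0.52 and -0.30. None of these 8 genes was called, and they were picked as the extremes of 19775 genes. The first pair came from the other set of arrays, while both antagonist pairs lay in the larger set. Antagonist and set are therefore partly mixed in this comparison, and their parts were not tested.

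**Figure D5:**
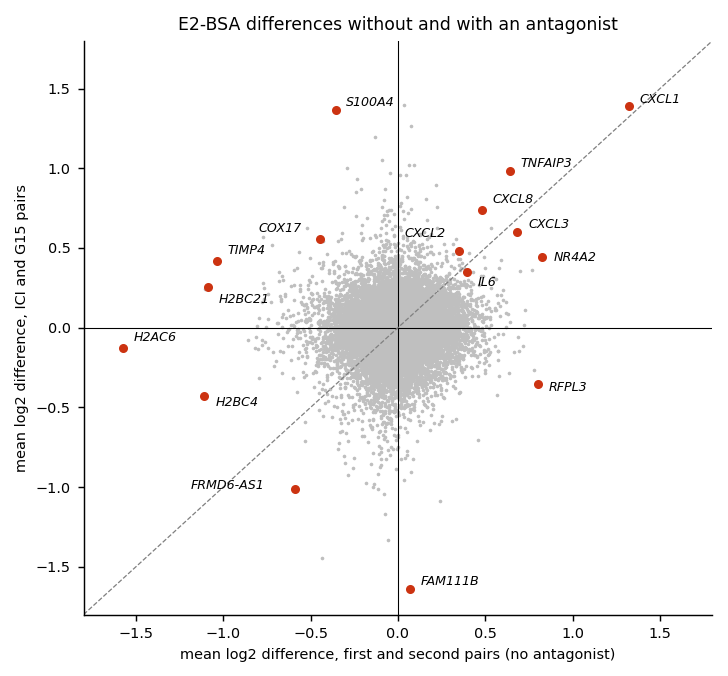
Mean log2 difference of the first and second pairs (x axis, no antagonist) against the mean of the ICI and G15 pairs (y axis), both E2-BSA minus its matched array, for 19775 genes, with named genes in red and the line of equal differences dashed. CXCL1 and TNFAIP3 lie near the line at the upper right, H2AC6 lies far to the left near 0 on the y axis, and FAM111B is low through the G15 pair.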

How the data were processed

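The authors deposited 1 table of 54675 probe sets for 11 arrays. The deposited values were taken as log2 values that the authors had centred for each probe set, from the values themselves: their summarisation, normalization and log base are not given in the sources used here. In 28281 probe sets (51.7%) the positive and the negative value closest to 0 are equal in size within 1e-05, as centring on a median can leave. By the platform's annotation 41091 probe sets had 1 gene symbol, 1801 several, 11721 none and 62 were controls. Symbols were averaged to 19775 genes (10523 with more than 1 probe set), and each pair's difference was centred on its median gene. The 4 differences were tested with limma 3.58.1 in R 4.3.3 (prior trend over the mean centred value, Benjamini-Hochberg adjustment over all genes), a fit that blocks on the pair. It was also run on simulated pairs. Their variances did not follow a gene's mean centred value, so that run cannot show how the trend behaves in these data. Alternatives were no centring, no pair block, each pair left out, 1 probe set a gene, no x or s probe sets, quantile normalization, no trend and a variance filter. Genes named were, in each direction among genes of 1 sign, the 12 with the largest smallest difference and the 8 with the largest mean, then the 5 smallest p-values, the 4 smallest for the antagonists, 6 with the largest SD, and the 4 largest means of each list with ESR1, ESR2 and GPER1; other list members, probe sets and transcript kinds were picked after their values were seen, and not every gene that the rule gives is printed. Members and lists were chosen with earlier results of these data known.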

Additional observations from a re-analysis of the deposited data

Results flagged for a closer look

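Dixon's criterion, by which chance marks about 1 in 20 groups of 4, was applied to 114 results over the 4 pairs and marked 16, of which 9 had the G15 pair apart, 6 the first pair and 1 the second. Many of the 114 were picked from these same differences, some for a large mean or SD. The rate of 1 in 20 therefore does not hold for them, and the 16 cannot be set against it. The G15 pair was far from the other 3 for FAM111B (-3.11), SRGAP2C (-2.65), HTATSF1P2 (-2.33), POM121C (-1.98), TOP1 (-1.96), ZFR (-1.93), CCND1 (-1.56), TTC32 (-0.80) and LOC105373942 (-0.50). The first pair was far from the others for H1-2 (-1.44), SAMD9L (-1.21), BTC (-0.73) and SPRY2 (0.50), and in the list medians of interferon-stimulated genes (-0.37) and luminal epithelial markers (-0.14). In the second pair TMEM72-AS1 stood apart at -0.29, by a gap of a few hundredths.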

How the results depend on the processing

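No gene was called over the 4 pairs or for the antagonists under any alternative, the fit without the pair block included. Leaving out a pair asks for agreement in 3 pairs and by construction gave more genes: 2508 to 2761 higher and 2508 to 2778 lower, and 76 to 123 higher and 58 to 110 lower by more than 0.2. Among genes of upper-half variance 571 were higher and 855 lower. With 1 probe set a gene, 50 were higher and 39 lower by more than 0.2. List medians moved for estrogen receptor alpha targets (0.022 with 1 probe set a gene, 0.032 without x and s probe sets, 0.015 after quantile normalization, -0.112 with the variance filter, -0.034 to 0.006 when a pair was left out), for the unfolded protein response (-0.021, -0.094 and -0.032 in the first 3 of these, -0.071 to -0.011 when a pair was left out), for motility genes (-0.116 with 1 probe set, -0.102 with the filter, -0.104 to -0.03 when a pair was left out), for glycolysis (0.048 without x and s probe sets, 0.062 after quantile normalization, 0.056 with the filter), for proteases (0.022 with 1 probe set, 0.048 with the filter, -0.048 to -0.008 when a pair was left out), for oxidative stress (-0.061 to -0.007 when a pair was left out), for prostaglandin genes (0.094 without x and s probe sets, 0.095 with the filter), and with the filter for steroid receptors (0.088), chaperones (-0.141) and respiration (-0.063). The interferon median became 0.034 without the first pair. Of 88 gene results 7 turned sign under an alternative. When a pair was left out the mean ranged from -0.906 to 0.025 for ANKRD36B, -0.698 to 0.114 for MATR3 and -0.522 to 0.01 for CCND1 (highest without the G15 pair), from -0.773 to 0.168 for ALPP and -0.098 to 0.004 for GPER1 (highest without the first pair), and from -0.018 to 0.053 for ESR2. CCND1 was 0.061 without x and s probe sets, and DUSP1 was -0.001 with 1 probe set a gene. The causes were not tested, and with 4 pairs of relative values no signal over background limits could be set.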
